A study of Homo sapiens with 10 samples.

Results

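Neural POU factors are described here through 8 genes, POU2F1, POU3F1, POU3F2, POU3F3, POU3F4, POU4F1, POU4F2 and POU6F1, out of 31017 genes counted in the series. The genes were taken by name from the table of read counts, and the promoter of each was the baited HindIII fragment that held its start. Each of the 8 genes had 1 such fragment. Human ESCs of the established line H9 were compared with NECs, which are neuroectodermal cells grown from the same line and harvested on day 7 of differentiation. The NECs were grown as spheres with no sorting step described, the labels name no engineered allele, and both groups come from 1 line, so other genetic backgrounds are not covered. Polyadenylated RNA and promoter capture Hi-C (PCHi-C) were each measured in 2 biological replicates of each cell type. PCHi-C enriches ligated DNA for fragments that carry a promoter (baits), and a fragment called in contact with a bait is a promoter-interacting region (PIR).

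POU factors bind DNA through a bipartite domain that joins a POU-specific part to a homeodomain, and many of them recognise an octamer motif. Class III factors (POU3F1, also called OCT6, POU3F2 or BRN2, POU3F3 or BRN1, and POU3F4 or BRN4) act in neural progenitors, commonly beside SOX proteins. Class IV factors (POU4F1 or BRN3A, and POU4F2 or BRN3B) are known from sensory neurons and retinal ganglion cells. POU2F1 (OCT1) is expressed in most tissues, and POU6F1 is a more divergent member expressed in brain. POU5F1 (OCT4) is the family member of pluripotent cells.

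RNA libraries held 19234087 to 25356382 counted reads, and 17564 genes passed the filter on low counts. By their library names, the ESC libraries shared a lane and the NEC libraries shared a different lane, so lane and cell type cannot be told apart. Of 10 pluripotency markers 9 were lower in NECs and of 10 neuroectoderm markers 8 were higher, with OTX2 and FEZF1 the exceptions (log2 fold changes of −1.33 and −1.28). Over all genes tested 11.4% were called higher and 9.68% lower. Markers near 0 counts in ESCs, such as HES5 and the crest gene TFAP2B (0 counts in both ESC libraries), could be tested only because of the NEC libraries. The numbers of markers called here and below are therefore descriptions. NEC replicates were not alike in these markers or in those of other cell types. The summed level of the neuroectoderm markers was 1220 in NEC replicate 1 and 756 in NEC replicate 2, against 276 and 181 in ESCs. That of the pluripotency markers was 1060 and 1580 in NECs, against 6220 and 6510 in ESCs. These sums are in CPM, as are those that follow. Most of the NEC pluripotency sum came from LIN28A, the marker not called (log2 fold change −0.69). Its level was 729 and 941 CPM in NECs, against 1360 and 1330 in ESCs. The summed level of 7 neural crest markers was 142 CPM (counts scaled to the normalised library size) in NEC replicate 1 and 41.5 in NEC replicate 2, against 20.6 and 21.2 in ESCs, and 4 of the 7 were called higher. Of the defining crest genes that were not called, SOX10 had 70 and 90 counts in ESCs and 393 and 17 in NECs (adjusted p = 0.323 by edgeR). FOXD3 had 284 and 399 in ESCs and 186 and 9 in NECs (adjusted p = 0.136 by edgeR). Among 10 neuron markers 4 were called higher, NEUROD1 had 0 counts in both ESC libraries and 12 and 2 in NECs, and the summed level was 232 and 245 CPM in ESCs and 307 and 280 in NECs. Most of that sum was TUBB3, with 211 and 226 CPM in ESCs and 214 and 224 in NECs. All 6 mesendoderm markers were lower in NECs, from 34.9 and 95.0 CPM summed in the ESC libraries to 5.33 and 3.53. In bulk RNA, fewer cells of a type and less RNA per cell cannot be told apart, and the part of these markers in the values below was not tested.

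The promoters of the 5 genes whose expression rose in NECs are shown first. Expression was counted over each gene, and contacts were read from the whole baited fragment that holds the stretch shown. The 250 bases before the RefSeq start of each gene are given 5′ to 3′ on the gene's own strand, with CpG dinucleotides in capitals. POU3F1 and POU4F1 lie on the minus strand. The sequences are from the RefSeq promoter table (assembly GRCh38.p14), and the positions are those of the single exact match in GRCh37, the build of the deposited files.
POU3F1 chr1:38512466-38512715: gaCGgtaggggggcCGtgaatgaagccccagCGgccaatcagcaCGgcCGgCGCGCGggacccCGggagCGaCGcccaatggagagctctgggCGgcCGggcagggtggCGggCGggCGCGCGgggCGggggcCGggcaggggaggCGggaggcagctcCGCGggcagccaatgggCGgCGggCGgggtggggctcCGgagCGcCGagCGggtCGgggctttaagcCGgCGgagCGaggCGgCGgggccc
POU3F2 chr6:99282200-99282449: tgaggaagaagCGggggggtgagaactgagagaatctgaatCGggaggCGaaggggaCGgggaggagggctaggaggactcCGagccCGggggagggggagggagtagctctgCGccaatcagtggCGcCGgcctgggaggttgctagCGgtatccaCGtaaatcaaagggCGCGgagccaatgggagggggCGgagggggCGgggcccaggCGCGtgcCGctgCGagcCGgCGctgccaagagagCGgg
POU3F3 chr2:105470323-105470572: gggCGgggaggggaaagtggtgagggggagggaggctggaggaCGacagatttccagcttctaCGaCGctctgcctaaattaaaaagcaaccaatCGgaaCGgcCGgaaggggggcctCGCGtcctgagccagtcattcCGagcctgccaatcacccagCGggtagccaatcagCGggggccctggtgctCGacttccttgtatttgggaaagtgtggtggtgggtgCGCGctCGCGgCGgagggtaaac
POU3F4 chrX:82763048-82763297: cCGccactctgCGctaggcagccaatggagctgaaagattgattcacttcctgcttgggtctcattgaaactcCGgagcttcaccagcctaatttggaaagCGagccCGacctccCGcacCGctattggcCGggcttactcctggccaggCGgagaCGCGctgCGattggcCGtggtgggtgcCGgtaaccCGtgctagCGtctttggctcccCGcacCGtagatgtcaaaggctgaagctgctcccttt
POU4F1 chr13:79177688-79177937: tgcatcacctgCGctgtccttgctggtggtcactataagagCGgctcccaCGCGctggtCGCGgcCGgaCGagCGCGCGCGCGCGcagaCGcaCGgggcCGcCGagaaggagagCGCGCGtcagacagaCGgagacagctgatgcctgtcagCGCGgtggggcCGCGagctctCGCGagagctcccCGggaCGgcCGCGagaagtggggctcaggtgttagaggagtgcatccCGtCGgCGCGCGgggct
All 5 stretches lay inside the baited fragment of their gene. POU4F1 had 37 CpG dinucleotides and POU3F1 had 36, more than 96.0% and 95.1% of the 35116 windows in the table. POU3F2 had 22, and POU3F3 and POU3F4 had 18 each, against a median of 11 over all windows. The octamer ATGCAAAT, the motif of POU factors, was searched on both strands in windows from 250 bases before to 50 bases after each start. It was absent from these 5 windows and from those at the main starts of POU2F1, POU4F2 and POU6F1, and it occurs in 1.77% of all windows. The SOX motif CATTGTT was absent from all 11 windows of the 8 genes and occurs in 3.33% of all windows. A missing match says only that these letters are not in the window.

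An internal start of POU2F1 was the exception, shown because its window is the only member window with an octamer (on the minus strand, in capitals).
POU2F1 internal start chr1:167298057-167298306: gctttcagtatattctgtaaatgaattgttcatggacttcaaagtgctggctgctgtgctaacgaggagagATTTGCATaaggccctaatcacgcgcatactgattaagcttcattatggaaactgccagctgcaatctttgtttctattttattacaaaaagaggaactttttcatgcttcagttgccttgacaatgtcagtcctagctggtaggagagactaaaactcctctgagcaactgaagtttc
The octamer begins 179 bases before this start. The stretch lies within POU2F1 and outside the baited fragment, so no contact was read out from it. Its GC content was 40.4%, against 72.4% before the main POU2F1 start.

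Class III genes and POU4F1 were higher in NECs, as the plot of length-scaled levels shows. Of the 8 genes, 5 were higher in NECs (POU3F1, POU3F2, POU3F3, POU3F4 and POU4F1), where 11.4% of all genes tested were called higher. None was called lower by edgeR's quasi-likelihood test, where 9.68% of all genes were. DESeq2 likewise called 0 lower, with or without shrinkage of the fold changes. POU2F1 and POU6F1 were lower at an unadjusted and at an adjusted p under 0.05, without passing the fold threshold. At any fold, 29.7% of all genes tested were lower. POU4F2 did not pass the filter. POU3F2, POU3F3, POU3F4 and POU4F1 passed it through the NEC libraries alone, since fewer than 2 ESC libraries reached the cutoff (10 counts at the median library size). A difference was therefore a condition of testing for 4 of the 5 genes called higher, and their number is not read against the share over all genes. Calls needed a log2 fold change beyond 1.5 in either direction as well as an adjusted p (Benjamini-Hochberg) under 0.05, and every adjusted p-value below is from edgeR's quasi-likelihood test over 17564 genes. As a description, the median log2 fold change was 3.04 over the 7 genes tested and 0.01 over all genes tested. The 7 include the 4 genes that passed through the NEC libraries alone, so the medians are not read against each other either.

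**Figure D1:**
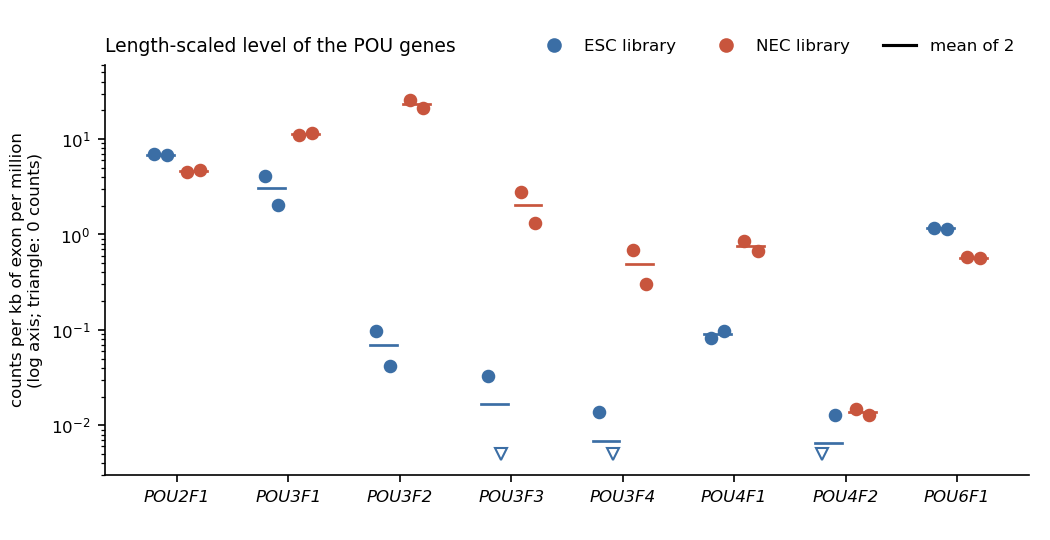
Length-scaled expression (RPKM, counts per kb of exon scaled to the normalised library size, log axis) of the 8 POU genes in each of the 4 RNA libraries, with bars at the mean of the 2 libraries of a cell type and open triangles for libraries with 0 counts. POU3F2 moved from 0.0976 and 0.0414 in ESCs to the highest level in NECs, 25.4 and 21.3, while POU4F2 stayed near the bottom in both cell types.

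POU3F2 (chromosome 6, 99282580 to 99286660), a factor of cortical progenitors and migrating neurons, had 9 and 5 counts in the ESC libraries and 2650 and 2566 in the NEC libraries. The groups were far apart and the NEC libraries close to each other. The log2 fold change was 8.44 (adjusted p = 1.03e-05, SE 0.25). As a ratio of summed counts this was 353-fold, with an exact 95% counting interval of 210 to 646.

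POU3F1 (chromosome 1, 38509523 to 38512450), a factor of early neural and epiblast cells and of Schwann cells, was the only class III gene with more than a few counts in ESCs. Its counts were 227 and 149 in ESCs and 697 and 843 in NECs, so every NEC library was above every ESC library while the ESC libraries differed from each other. The log2 fold change was 1.90 (adjusted p = 0.00184, SE 0.29). Without ESC replicate 2 the log2 fold change was 1.47 (edgeR adjusted p = 0.000437), under the fold threshold, and the call was lost.

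POU3F3 (chromosome 2, 105471969 to 105476929), expressed in forebrain and kidney progenitors, had 3 and 0 counts in ESCs and 283 and 155 in NECs. The ratio of summed counts was 138, with an exact 95% interval of 47.0 to 673 for counting error only. Its log2 fold change was 7.02 (adjusted p = 0.000535, SE 0.78). The size of this change depended on the setting, from 4.10 with DESeq2's shrinkage to 10.84 without ESC replicate 1, which held all 3 ESC counts.

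POU3F4 (chromosome X, 82763269 to 82764775), a factor of the neural tube and inner ear, had 1 and 0 counts in ESCs and 56 and 29 in NECs. NEC replicate 1 held more of the reads of both POU3F3 and POU3F4 than NEC replicate 2. The summed neuroectoderm (1220 and 756 CPM), crest (142 and 41.5 CPM) and neuron markers (307 and 280 CPM) were also higher in NEC replicate 1. Single genes weighed heavily in these sums. DLK1 had 641 and 338 CPM of the neuroectoderm sum, while SOX1 was alike (125 and 120) and LHX2 went the other way (7.63 and 12.5). TUBB3 had 214 and 224 CPM of the neuron sum. The summed pluripotency markers were higher in NEC replicate 2 (1060 and 1580 CPM). The ratio of summed counts for POU3F4 was 80.5, with an exact interval of 14.1 to 3220. The log2 fold change was 6.04 (adjusted p = 0.00171, SE 0.91), and it ran from 4.01 with shrinkage to 8.47 without ESC replicate 1.

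POU4F1 (chromosome 13, 79173227 to 79177673), a factor of sensory neurons, rose from 7 and 11 counts in ESCs to 82 and 75 in NECs, with no overlap. Its log2 fold change was 3.04 (adjusted p = 0.000543, SE 0.34). POU4F2 (chromosome 4, 147560045 to 147563626), the retinal ganglion cell factor, had 0 and 1 counts in ESCs and 1 and 1 in NECs. No fold is given for POU4F2, since both groups were at or under 3 counts.

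POU2F1 (chromosome 1, 167190066 to 167396582) had 2108 and 2674 counts in ESCs and 1542 and 1870 in NECs. On the normalised scale these were 112 and 108 CPM in ESCs and 72.2 and 75.8 in NECs, without overlap. The log2 fold change was −0.57 (adjusted p = 0.00161, SE 0.08). POU6F1 (chromosome 12, 51580719 to 51611477) had 142 and 179 counts in ESCs and 79 and 89 in NECs. Its log2 fold change was −1.01 (adjusted p = 0.0048, SE 0.20). Both genes kept a higher level in ESCs in every setting tried, with log2 fold changes of −0.61 to −0.51 for POU2F1 and −1.05 to −0.95 for POU6F1.

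**Figure D2:**
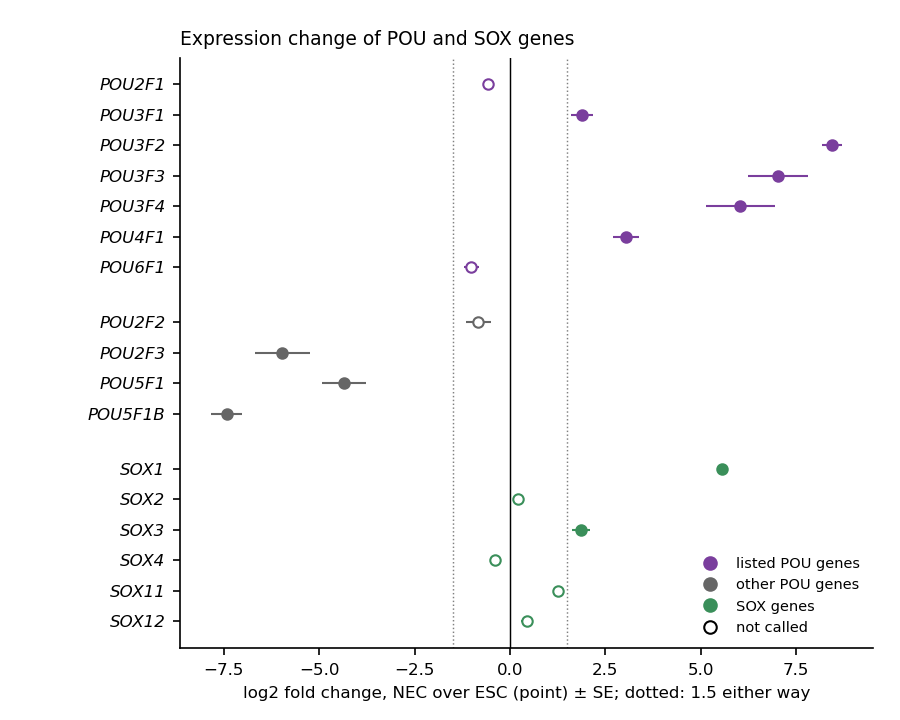
Log2 fold change of NECs over ESCs (points) with standard errors (bars) for the POU and SOX genes described here, where filled points were called and dotted lines mark 1.5 on either side of 0. POU3F2 (8.44) stands highest and POU5F1B (−7.42) lowest among the genes drawn.

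Per kb of exon, the order of the 8 genes differed between the cell types. In ESCs POU2F1 was highest at 6.97 and 6.75 RPKM (counts per kb of exon, scaled to the normalised library size), followed by POU3F1 (4.06 and 2.03) and POU6F1 (1.18 and 1.13). Below them, POU4F1 and POU3F2 overlapped, and POU3F3, POU3F4 and POU4F2 overlapped with each other at no more than 0.0331. In NECs POU3F2 led at 25.4 and 21.3, ahead of POU3F1 at 11.0 and 11.5 and POU2F1 at 4.50 and 4.73. POU3F3 (2.76 and 1.31) and POU4F1 (0.845 and 0.670) came next. POU6F1 (0.577 and 0.563) and POU3F4 (0.683 and 0.306) overlapped, and POU4F2 was last at 0.0149 and 0.0129.

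Across the POU family in the table, class III genes took a larger share in NECs and class V genes a smaller one, to a different extent in the NEC replicates. Class III made up 68.8% of the summed level in NEC replicate 1 and 42.7% in NEC replicate 2, and class V (POU5F1 and POU5F1B) made up 18.9% and 48.8%, so class V still led in replicate 2. POU5F1 made up 88.9% and 89.0% of the summed length-scaled level of 15 POU genes in the ESC libraries, and 18.7% and 48.2% in the NEC libraries. POU3F2 made up 43.9% of it in NEC replicate 1 and 26.4% in NEC replicate 2, against no more than 0.0168% in an ESC library. POU3F1 made up 19.0% and 14.3% in NECs and 0.698% and 0.361% in ESCs. The sum itself was 581 and 563 RPKM in ESCs and only 57.9 and 80.6 in NECs, which means that the NEC shares are of a much smaller total. The plot of these shares shows that the NEC replicates differ in POU5F1, which had 663 counts in replicate 1 and 2749 in replicate 2.

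**Figure D3:**
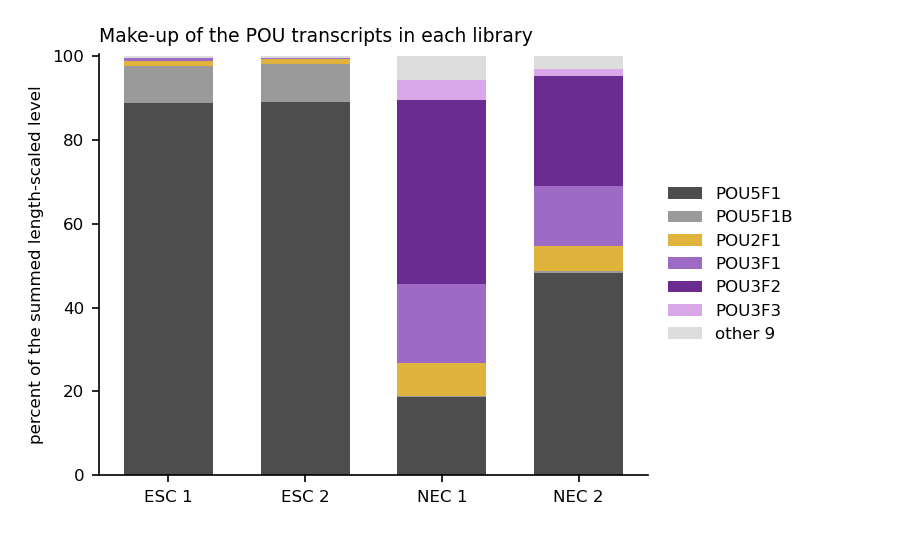
Share of each POU gene in the summed length-scaled level of 15 POU genes (percent), in each of the 4 RNA libraries, with the 9 lowest genes drawn together. POU5F1 fills 88.9% and 89.0% of the ESC bars, whereas POU3F1 and POU3F2 fill most of what POU5F1 leaves in the NEC bars.

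Among other POU genes, POU5F1, POU5F1B and POU2F3 were called lower in NECs. POU5F1 (27972 and 35548 counts in ESCs) was lower by edgeR at −4.35 on the log2 scale (adjusted p = 0.000991, SE 0.57), and without NEC replicate 2 the value was −5.56. POU5F1B, a retrogene copy of it with 4739 and 6254 counts in ESCs and 11 and 57 in NECs, changed by −7.42 (SE 0.40). Reads of POU5F1 and its copies can be assigned to each other, so the separate values are uncertain. POU2F3, a factor of epidermis and tuft cells, had 119 and 66 counts in ESCs and 2 and 1 in NECs. Since POU2F3 passed the filter through the ESC libraries alone, a difference was a condition of its being tested. The summed counts of POU2F3 were 65.1-fold higher in ESCs, with an exact 95% counting interval of 21.9 to 319. POU2F2, the lymphoid OCT2, did not pass the test (−0.83, adjusted p = 0.0678). POU1F1 and POU4F3 had at most 2 counts in any library.

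Of 6 SOX genes, whose products partner POU factors on DNA, SOX1 and SOX3 were called higher and none lower, with a median log2 fold change of 0.85. At an unadjusted p under 0.05 in edgeR's test, 1 of them (SOX4) was lower, with a log2 fold change of −0.39. SOX2, the partner of POU5F1 in pluripotent cells and of class III factors in neural cells, had 6482 and 8137 counts in ESCs and 7900 and 10122 in NECs. Its log2 fold change was 0.21 (adjusted p = 0.106, SE 0.10). SOX1 rose from 53 and 59 counts to 2673 and 2959 (log2 fold change 5.57, SE 0.13) and SOX3 from 441 and 345 to 1371 and 1737 (1.86, SE 0.23). SOX11 had a log2 fold change of 1.26, under the fold threshold, with an adjusted p of 0.000121.

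Several non-coding genes lie beside the listed genes, and the count did not use strand. AC018730.1, a lncRNA that starts in the same bait as POU3F3 and runs the other way, had 0 counts in both ESC libraries and 187 and 120 in NECs. Summed over each cell type, it was at least 96.9-fold higher in NECs, taking 3 counts over the group as the limit that 0 counts allow. AC018730.3, which starts 17.1 kb from POU3F3, had 0 and 0 counts in ESCs and 13 and 8 in NECs, at least 6.63-fold higher by the same limit, and was not tested. RP5-884C9.2, a lncRNA that starts 0.5 kb from POU3F1 in the same bait, went from 7 and 4 counts to 35 and 42 (log2 fold change 2.68, adjusted p = 0.0025, SE 0.44). Both AC018730.1 and RP5-884C9.2 passed the filter through the NEC libraries alone. A contact of either bait belongs to the pair of genes as much as to the POU gene. POU4F1 lies within the span of POU4F1-AS1 on the opposite strand, although their annotated exons do not overlap. POU4F1-AS1 had 414 and 450 counts in ESCs and 497 and 625 in NECs, with a log2 fold change of 0.28 (adjusted p = 0.118, SE 0.14).

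For each tested gene, the genes with the nearest profile were found by Euclidean distance between log2 CPM profiles, centred on their own mean over 4 libraries. With only 2 cell types, such a profile holds little more than the fold change and the gap between replicates. POU3F2 was nearest to SFRP4 (distance 0.318 on the log2 scale), a secreted WNT antagonist, and to the paired-box factor PAX8 (0.549). POU3F3 was nearest to STMN4 (0.927) and GDF10 (0.960), and POU3F4 to ZNF467 (0.441) and DIO3OS (0.458). POU3F1 was nearest to the semaphorin receptor PLXNC1 (0.115) and PODNL1 (0.149), and POU4F1 to C9orf9 (0.0308) and the sodium-proton exchanger SLC9A3 (0.0911). POU2F1 was nearest to ACSL4 (0.0216) and PAXIP1 (0.0220), and POU6F1 to GDF9 (0.0291) and CARS (0.0465).

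The promoters of the 8 genes were next compared for the regions they contacted. Contacts were scored by the authors with CHiCAGO, whose score is the negative log of a distance-weighted p-value. Lists of scores of at least 12 exist for single replicates and, under the name merged, for both replicates of a cell type together. Since the lists give scores without read numbers, the depth of a call is unknown. With 2 replicates against 2, no permutation test can go below p = 0.333, and none was run. All distances are between fragment midpoints, and every PIR of these promoters was on the promoter's own chromosome. The merged calls held 65 PIRs of the 8 promoters in ESCs and 82 in NECs, 122 different fragments in all. The ends of all 122 and of the 8 baits were HindIII sites in GRCh37.

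Numbers of PIRs ranged widely over the 8 promoters, among expressed and silent genes alike, as the plot of PIR numbers shows. In the NEC merged calls POU3F2 had 38 PIRs, POU3F1 had 18, POU4F1 had 10 and the silent POU4F2 had 7. POU2F1 had 4, POU3F3 had 3, and POU3F4 and POU6F1 had 1 each. The median bait with a PIR had 3 in either cell type. In the merged lists POU3F2 had more than 93.5% of such baits in ESCs and 99.4% in NECs. POU3F1 had more than 96.4% of baits in ESCs and 94.6% in NECs.

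**Figure D4:**
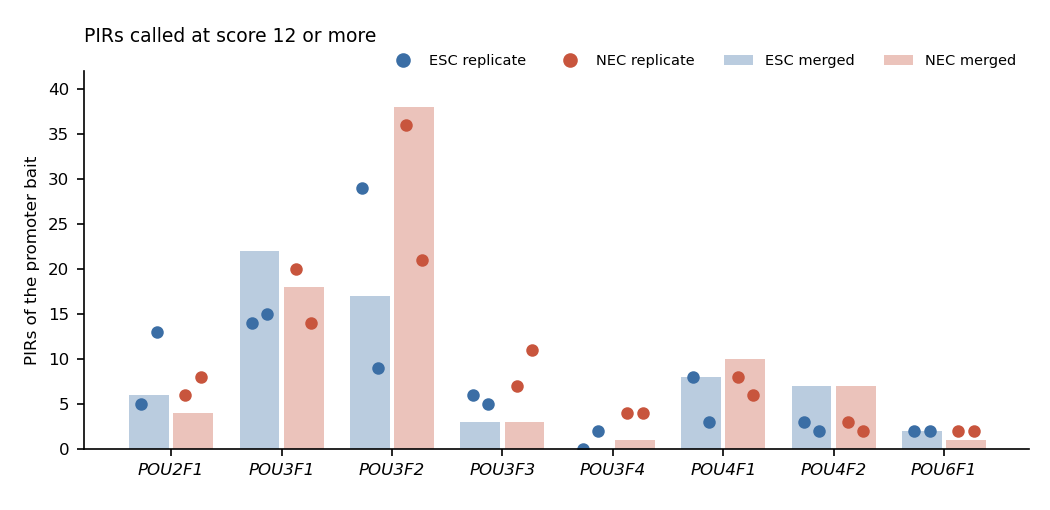
Number of PIRs at a score of at least 12 for each POU promoter, with bars for the merged calls and points for the replicates of each cell type. The POU3F2 bar stands at 17 in ESCs and 38 in NECs, but its ESC replicates are at 29 and 9 and its NEC replicates at 36 and 21, so the points overlap.

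Replicate ranges of ESCs and NECs overlapped at 6 of the 8 promoters. At POU3F2 the ESC replicates called 29 and 9 PIRs, the NEC replicates 36 and 21, and 1 ESC replicate lay above 1 NEC replicate. POU3F1 had 14 and 15 in ESCs and 20 and 14 in NECs, and POU2F1 had 5 and 13 in ESCs and 6 and 8 in NECs. POU4F1 had 8 and 3 in ESCs and 8 and 6 in NECs. POU6F1 had 2 in every replicate, and POU4F2 had 3 and 2 in each cell type.

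At 2 promoters both NEC replicates were above both ESC replicates, against 13.2% of all baits. These were POU3F3, where the ESC replicates had 6 and 5 PIRs and the NEC replicates 7 and 11, and POU3F4, with 0 and 2 in ESCs and 4 and 4 in NECs. At none were both NEC replicates below, against 12.9% of all baits. The PIRs of POU3F4 did not repeat, for none of its 10 fragments was called in more than 1 replicate. At a score of at least 15 the count was again 2, but the promoters were POU3F3 and POU4F1.

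The called fragments mostly differed between ESCs and NECs, but they also mostly differed between replicates of the same cell type. Of the 122 PIRs, 25 (20.5%) were called in both merged lists, against 28.4% of all merged interactions. Of the 65 merged ESC PIRs, 13 were called in both ESC replicates and 17 in neither. For the 82 merged NEC PIRs these numbers were 25 and 10. The share in both merged lists is therefore not read as a difference between the cell types. Counting fragments within 10 kb of each other as shared, 52 of the 82 NEC PIRs had an ESC PIR beside them. PIRs called in all 4 replicates numbered 4 (3.28%, against 5.06% over all interactions), and 34 within 10 kb. Gained PIRs, called in the merged NEC list and both NEC replicates and in no ESC list, numbered 11 (9.02%, against 3.64% of all interactions). Lost PIRs, by the reverse rule, numbered 5 (4.10%, against 3.61%). Only 2 gained and 2 lost PIRs had no call of the other cell type within 10 kb. No share within 10 kb was computed over all interactions, so the counts with that margin are descriptions only. The gained PIRs were at POU3F2 (6), POU3F1 (3), POU2F1 (1) and POU3F3 (1). The lost PIRs were at POU3F2 (2), POU3F1 (1), POU2F1 (1) and POU3F3 (1).

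POU3F2 contacted a gene-poor stretch far upstream. All 38 NEC PIRs and 16 of the 17 ESC PIRs lay upstream, at a median distance of 1125.9 kb in NECs and 1168.4 kb in ESCs. Over all baits the median distance was 217.4 kb in NECs and 196.5 kb in ESCs, and 5.70% of all NEC calls reached 1 Mb or more. Of 48 PIRs in either cell type, 35 fell within 464.1 kb (chr6:97837396-98301449), most of them in introns of the unnamed lncRNA gene ENSG00000271860. In that stretch the merged lists held 14 ESC and 28 NEC PIRs. The ESC replicates held 25 and 7 there and the NEC replicates 30 and 14.

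A second group of 8 PIRs lay nearer the gene, in 129.4 kb (chr6:98464332-98593771) at 695.0 to 814.8 kb. It held 2 ESC and 6 NEC PIRs and no shared fragment. The ESC replicates held 3 and 0 PIRs there and the NEC replicates 6 and 5, so the numbers called from the POU3F2 bait did not overlap. The fragment chr6:98464332-98477058 of this group is also a bait. From that end it called POU3F2 in both ESC replicates (17.25 and 13.37) and both NEC replicates (16.61 and 14.24). Contact with this stretch was thus called in ESCs as well. The further 4 upstream PIRs, at 197.0 to 350.7 kb, were NEC calls of the merged list, and 1 of them was repeated in a replicate. The groups were drawn after their positions were seen, wherever neighbouring PIRs were more than 100 kb apart, and no test was made on them.

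The highest NEC score at POU3F2 was 23.79, at chr6:98173989-98177156, with 19.23 and 19.29 in the NEC replicates and 12.62 in ESC replicate 1. This fragment had no score of 12 in ESC replicate 2 or the merged ESC list. The highest ESC score was 17.43, at chr6:97941689-97946000, carried by ESC replicate 1 alone (20.43) and by no NEC list. The PIR called in all 4 replicates, chr6:98102517-98109913, scored 15.38 in ESCs and 14.49 in NECs. Its replicate scores were 13.85 and 14.73 in ESCs, then 12.94 and 14.05 in NECs. The 6 gained PIRs had merged scores of 13.94 to 17.59, the highest at chr6:98477059-98498587 (14.61 and 13.47 in the replicates). Of the 6, chr6:98580915-98586025 (merged 16.69, replicates 14.27 and 12.51) had no ESC call within 10 kb. The 2 lost PIRs scored 12.62 and 13.79 in the merged ESC list.

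**Figure D5:**
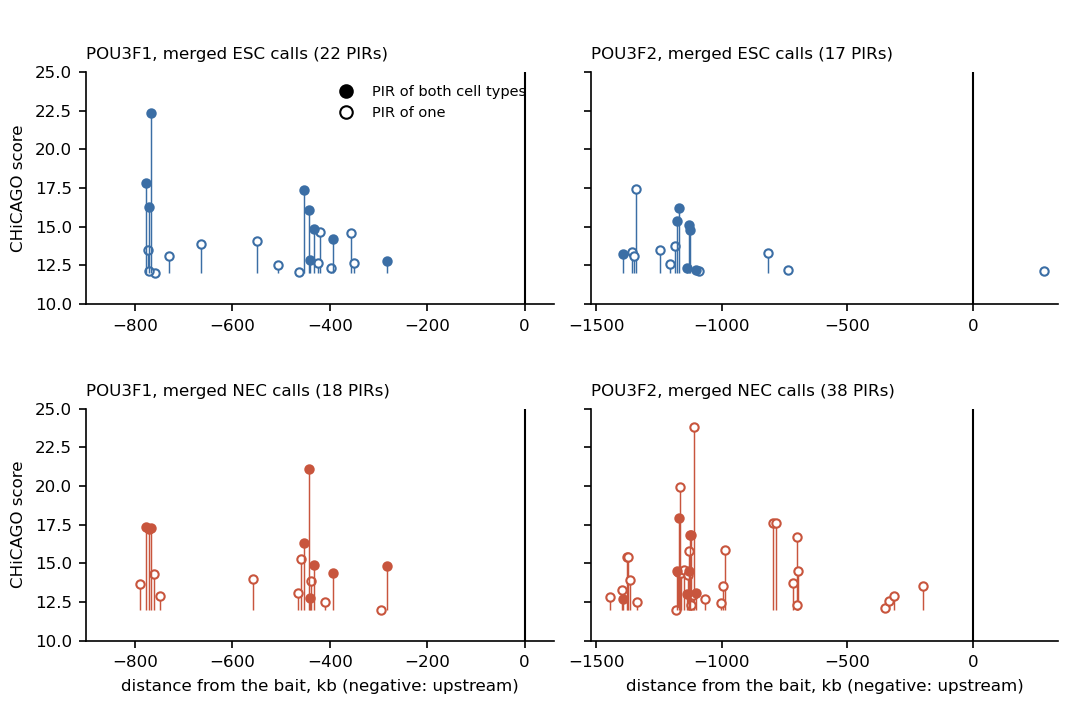
CHiCAGO score of each merged PIR of POU3F1 (left) and POU3F2 (right) against its distance from the bait in kb, negative upstream of the gene, in ESCs (upper) and NECs (lower), with filled points for fragments called in both cell types. Most POU3F2 PIRs lie between 985.4 and 1444.4 kb upstream, with the NEC maximum of 23.79, and those of POU3F1 have their highest scores at 442.3 kb (NECs) and 767.4 kb (ESCs).

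PIRs of these promoters held octamers, and both stretches below come from POU3F2 PIRs, the one with the highest score and the one called in all 4 replicates. They are GRCh37 plus-strand sequence with 60 bases on either side of the octamer, in capitals.
POU3F2 PIR chr6:98174947-98175074: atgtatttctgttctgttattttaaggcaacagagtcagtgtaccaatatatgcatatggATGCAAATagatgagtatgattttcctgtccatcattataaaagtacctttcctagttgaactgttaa
POU3F2 PIR chr6:98105932-98106059: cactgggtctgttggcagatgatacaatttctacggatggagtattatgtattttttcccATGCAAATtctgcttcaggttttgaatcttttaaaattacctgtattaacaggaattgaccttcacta
Octamers on either strand numbered 38 in the 48 POU3F2 PIRs, or 1.47 per 10 kb, and 23 of the 48 held at least 1. Over all 78855 merged PIRs there were 0.752 per 10 kb, and 32.4% of fragments held 1 or more. The motif is AT-rich, and the GC content was 35.3% over POU3F2 PIRs and 45.0% over all PIRs, so the densities are not of like sequence. Over the PIRs of all 8 promoters the density was 1.29 per 10 kb at a GC content of 39.3%. At POU4F1 it was 1.88, at POU3F1 1.15 and at POU2F1 0.236. These matches are letters in the reference and no binding was measured.

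POU3F1 was contacted from upstream alone, by 22 PIRs in ESCs and 18 in NECs. All 31 different fragments fell within 518.5 kb (chr1:38787218-39305753), at 283.1 to 789.4 kb, and 9 were shared. Every one of the 18 NEC PIRs had an ESC PIR within 10 kb. The 3 PIRs called in all 4 replicates were chr1:38952990-38956481, chr1:39282761-39284113 and chr1:39287630-39294232. The first of these, in an intron of LINC01685, was the highest in NECs with 21.12, against 16.10 in ESCs, and its NEC replicates were apart (13.59 and 23.33). The highest ESC score was 22.35 at chr1:39276801-39282760, with 17.28 in NECs, although ESC replicate 2 did not call it. The 3 gained PIRs scored 13.98 to 15.28, and the lost PIR 14.08. FHL3 and UTP11L, genes whose bait lies nearby, shared 10 of these PIRs. FHL3 starts 41.2 kb from POU3F1 and had a log2 fold change of −0.07 (adjusted p = 0.616, SE 0.11), while UTP11L starts 37.5 kb away with −0.76 (adjusted p = 0.000836, SE 0.10).

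POU3F3 had 3 merged PIRs in each cell type, with 1 shared. The shared PIR, chr2:105144338-105151724 in LINC01102, scored 18.32 in ESCs and 12.17 in NECs. The lost PIR, chr2:105343328-105355851, lay 121.6 kb upstream and scored 16.71 in ESCs (13.95 and 14.61 in the replicates). The gained PIR, chr2:105046513-105047799, lay 424.0 kb upstream and scored 16.53 in NECs (17.64 and 12.63). Neither the lost nor the gained PIR had a call of the other cell type within 10 kb. POU3F4 had no merged PIR in ESCs and 1 in NECs, chrX:81213100-81215339, at 1550.3 kb and a score of 12.31, near the lower limit of the lists.

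PIRs of POU4F1 lay on both sides of the gene and numbered 8 in ESCs and 10 in NECs, with an overlap of 3. The highest NEC score was 19.58 at chr13:78710487-78714882, 464.0 kb downstream in an intron of OBI1-AS1, where the NEC replicates had 14.35 and 19.05 and the merged ESC list 13.27. In ESCs the highest was 13.95 at chr13:78492152-78494963, which holds the start of EDNRB, the endothelin receptor of neural crest cells. The EDNRB bait called POU4F1 in turn, at 15.12 in ESCs and 12.01 in NECs. EDNRB had 2513 and 1318 counts in ESCs against 1319 and 1302 in NECs, so the difference lay in ESC replicate 1. Its log2 fold change was −0.70 (adjusted p = 0.152, SE 0.38), and 0.08 without that library. A set of 3 ESC PIRs at 7.0 to 14.3 kb from the bait was in neither replicate list. No PIR of POU4F1 was gained, lost or called in all 4 replicates.

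POU4F2, at or under 1 count in every library, still had 7 PIRs in each cell type, of which 2 were shared. The shared PIRs were chr4:147833374-147836964, at 14.13 in ESCs and 15.99 in NECs, and the adjoining chr4:147836965-147842663, at 14.04 and 16.52. Both lie in introns of TTC29. The highest scores were 17.95 in NECs, at chr4:147258425-147266868 in SLC10A7, and 16.24 in ESCs, at chr4:148010428-148012951. None of its fragments was called in more than 1 replicate from this bait. The promoter was nevertheless called from other baits, 4 in the ESC and 7 in the NEC merged list. In the replicates such baits numbered 2 and 3 in ESCs and 5 and 3 in NECs. The bait of ZNF827, 702.1 kb away, called it at 16.12 in ESCs and 24.46 in NECs, and at 23.17 in ESC replicate 2 and 25.63 and 13.19 in the NEC replicates. The bait of SLC10A7, 116.8 kb away, called it in all 4 replicates (12.90, 14.29, 14.21 and 17.16). Counting such pairs from either end, POU4F2 had 11 PIRs in ESCs and 14 in NECs.

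POU3F2 was also called from other baits, 7 in the merged ESC list and 3 in the merged NEC list. The replicates overlapped, with 4 and 5 such baits in ESCs and 3 and 5 in NECs. A bait without a counted gene start, chr6:98464332-98477058, called it in all lists at 13.37 to 18.12. This bait is the fragment of the second group above and was a merged PIR of POU3F2. Another, chr6:98114516-98119666, called it in all lists too, at 12.25 to 23.92, and was a PIR of POU3F2 itself (16.22 in ESCs and 17.92 in NECs). The bait of PRDM13 called POU3F2 in ESCs at 12.41 and the bait of MMS22L in NECs at 15.18.

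Merged PIRs of POU2F1 numbered 6 in ESCs and 4 in NECs, of which 2 were shared, and several lay at other genes. The highest NEC score, 17.06 at chr1:166943297-166950891, was a fragment that holds the start of ILDR2, a transmembrane protein gene, and it scored 12.18 in ESCs. Among the replicates only NEC replicate 2 (18.93) and ESC replicate 1 (12.44) called this fragment, which was a PIR of 6 other baits as well. ILDR2 rose from 13 and 16 counts to 1381 and 1109 (log2 fold change 6.35, adjusted p = 2.02e-05, SE 0.27), against −0.57 for POU2F1 at the other end. The highest ESC score, 15.93 at chr1:167056089-167060383, was at the start of GPA33 (13.17 in NECs), which had a log2 fold change of 0.42 (adjusted p = 0.484, SE 0.49). The gained PIR was chr1:166852492-166857895 (13.10) and the lost PIR chr1:167414030-167419305 in CD247 (14.40). DUSP27 starts in an ESC PIR and MPZL1 in a NEC PIR. Of these, DUSP27 passed the filter on low counts through the NEC libraries alone. DUSP27 had 4 and 6 counts in ESCs and 11 and 20 in NECs and was called higher (log2 fold change 1.52, adjusted p = 0.0291, SE 0.47), but not without ESC replicate 1 (1.42), ESC replicate 2 (1.62) or NEC replicate 2 (1.15), where adjusted p-values were 0.18, 0.164 and 0.172, nor by DESeq2 (adjusted p = 0.244). MPZL1 was not called (0.38, SE 0.09).

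POU6F1 had 2 PIRs in ESCs and 1 in NECs. The shared PIR, chr12:51418595-51430263 at the start of SLC11A2, scored 15.71 in ESCs and 14.66 in NECs. It was a PIR of 10 other baits as well. The ESC PIR chr12:51438621-51442824 at the start of LETMD1 scored 13.55. SLC11A2 (log2 fold change 0.21, adjusted p = 0.074) and LETMD1 (0.26, adjusted p = 0.294) did not pass the test.

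PIRs of the 8 promoters were also placed against annotated genes. No like share was computed over all merged PIRs, so these positions are descriptions. Of the 122, 58 lay in introns, 33 overlapped an exon and 31 were intergenic in the annotation used. A counted gene start lay in 9 of the 65 ESC PIRs and 7 of the 82 NEC PIRs. At POU3F1 and POU3F2 the starts belonged to 3 non-coding genes, RP11-329N22.1, RP1-104O17.2 and RP1-104O17.3, and each had 0 counts in all 4 libraries.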

How the data were processed

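The authors trimmed the RNA reads, aligned them with TopHat to GRCh37 and counted them per gene on Ensembl models without strand; the deposited values are raw counts. For PCHi-C, the authors mapped reads with HiCUP and scored fragment pairs with CHiCAGO, and the deposited score lists hold pairs scoring at least 12 for each replicate and for merged replicates. The submitters' processing notes name Bowtie 1.0.0 and TopHat2 2.0.8b. Conventional Hi-C was not analysed here.

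Counts were normalised by TMM, filtered by filterByExpr (minimum count 10) and tested with edgeR 4.0.16 (quasi-likelihood) in R 4.3.3, with DESeq2 1.42.0 as an alternative, after a check on simulated data. Lengths are summed exons of the GENCODE v44 annotation on GRCh37. Lists were analysed in Python 3.11.15 with pandas 2.3.3, scipy 1.17.1 and matplotlib 3.10.9. Intervals cover counting error only. A gene with 1 to 3 ESC counts has a ratio with an interval rather than a bound. Replicates are labelled biological; p-values measure the spread between these samples.

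Members and lists were chosen with earlier results of these data known. Named genes are the 8 members, the other POU and SOX genes (results for part of that list are not reported here), examples of markers, the 2 nearest profiles of each tested member, non-coding neighbours within 100 kb, and, per promoter, the highest-scoring, all-replicate, gained and lost PIRs with protein-coding genes starting in a PIR. The POU3F2 groups, the baits calling POU4F2 or POU3F2, FHL3 and UTP11L were named after their values were seen. Alternatives were other scaling, filters and tests, leaving out each library, a replicate block, a score of 15 and a margin of 10 kb. Bait pairs from either end and all baits over the gene were also tried.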

Additional observations from a re-analysis of the deposited data

How the results depend on the processing

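All 7 tested POU genes kept their direction under every expression setting, and 76 of 77 recomputed fold changes kept their call. The exception was POU3F1 without ESC replicate 2 (1.47). Genes called numbered 3697, and 10738 without a fold threshold. Leaving out a library gave 3294 to 4105 genes and 4 to 5 POU members called. Of 77 recomputed list counts 76 stayed within 1.5 times; the mesendoderm list fell from 6 called genes to 3 without ESC replicate 2. Same-numbered replicates did not deviate together (correlation 0.0485). A pairing of the samples by number was thus not seen, but this value cannot exclude it. The replicate block called 3698 genes and 5 POU members.

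PIR counts moved more. A score of at least 15 left 15 ESC and 26 NEC PIRs, 6 shared, 0 in all 4 replicates, 1 gained and 0 lost. Within 10 kb, 52 were shared, 34 were in all 4 replicates, and 2 were gained and 2 lost, with no like share over all interactions. Single replicates gave 51 to 67 PIRs in ESCs and 68 to 86 in NECs. Of 80 recomputed counts per promoter, 43 stayed within 1.5 times. The 43 include all counts of 1 setting, all baits over the gene. That setting could not move, since each gene had 1 bait. The margin and the stricter score for gained and lost PIRs, and the settings for the lists, were chosen after seeing the data. Scores carry no read numbers, so depth sets an unknown limit on each call, and low ESC counts limit the fold changes of POU3F3 and POU3F4.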
